A study of Mus musculus with 48 samples.

Results

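Cortical gene expression was compared between 6 Chd8 V986*/+ and 6 WT male mice at 1 month of age, which are 12 of the 48 RNA-seq samples in the series and were chosen by their genotype and age labels alone. All mice were C57BL/6J, and the mutants carried 1 copy of a Chd8 allele in which CRISPR/Cas9 had placed stop codons at V986 and E987; the line came from a single founder male, and controls were WT littermates. RNA was taken from the cortex of 1 hemisphere, and the other groups were 6 WT and 6 Chd8 V986*/+ mice each at E14.5, 6 months and 12 months. Values are variance-stabilized (VST) expression values from DESeq2 on a log2 scale, so a difference of 1 approaches a 2-fold change in abundant transcripts and is smaller than the true change in rare ones. Because whole cortex was sequenced, fewer cells of a type and less RNA per cell cannot be told apart.

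CHD8 is an ATP-dependent chromatin remodeler of the chromodomain helicase family that binds the promoters of many active genes. Loss of 1 copy is among the most frequent single-gene findings in autism spectrum disorder. In the cortex the protein is known for its roles in progenitor proliferation, in the Wnt and p53 pathways and in the maturation of oligodendrocytes.

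The mutated site is shown because it defines the groups. In mm9, Chd8 spans 52817826 to 52857466 of chromosome 14 (minus strand), and the altered codons lie at 52837944 to 52837949 within exon 14 of 37. The reference bases from 52837902 to 52837991, read along the coding strand, are given with the codons for V986 and E987 in capitals.
Chd8 exon 14: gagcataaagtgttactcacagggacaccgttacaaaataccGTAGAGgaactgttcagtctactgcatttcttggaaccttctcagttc

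The libraries were checked before the comparison. Cortical excitatory neuron genes were highly expressed in every mouse, with Slc17a7, a vesicular glutamate transporter, at 15.21 to 15.49 and Camk2a at 16.59 to 16.91, whereas Hoxa2 and Hoxb2, which mark hindbrain and spinal cord, lay at the floor of the scale. Ttr, the main transcript of choroid plexus, ranged from 8.28 to 13.50 in WT and from 8.98 to 13.80 in Chd8 V986*/+ mice. WT replicate 5 stood apart on the second principal component (13.9% of variance). Chd8 V986*/+ replicates 1 and 3 lay at opposite ends of the first component (16.1% of variance). The median SD between mice was 0.126 among the WT and 0.123 among the mutant libraries.

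Chd8 itself was 11.55 to 11.87 in the WT mice, with a median of 11.73, and 10.94 to 11.11 in the Chd8 V986*/+ mice, with a median of 11.05. The groups did not overlap, and the mutant level was 62.7% of WT on the VST scale (log2 difference −0.67 ± 0.05 SE, adjusted p = 3.01e-06, limma with Benjamini-Hochberg adjustment over all genes tested; n = 6 against 6). The exact two-sided permutation test of the same values gave p = 0.0022, the smallest that 6 against 6 mice allow. The neighboring gene Supt16, a subunit of the FACT histone chaperone, differed by −0.05 ± 0.05 (adjusted p = 0.849), and Rab2b, a Golgi-associated GTPase, by 0.05 ± 0.04 (adjusted p = 0.803). Read counts of the mutant allele were not analysed here.

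Across the 17221 genes that lay at least 0.5 above the floor on average, 24 had an adjusted p below 0.1 (0.139%), of which 6 were higher (0.0348%) and 18 lower (0.105%) in Chd8 V986*/+ mice. Except for 4931408D14Rik, each of these differed by less than 1 on the log2 scale, and 10 differed by less than 0.3. In 20 of the 24 the values of the 2 genotypes did not overlap, 5 of them higher and 15 lower, a separation that 142 tested genes showed in all (0.825%), 66 higher (0.383%) and 76 lower (0.441%). The overlapping genes were Pnck, 4931408D14Rik, Fkbp5 and Ide. At an unadjusted p below 0.05 there were 1515 genes (8.8%), 642 higher and 873 lower. Chd8, Usp11 and Hmgb3 were called when any 1 of the 12 mice was left out, whereas the number of calls ranged from 3 to 32 under these omissions and fell to 3 without Chd8 V986*/+ replicate 5, to 4 without Chd8 V986*/+ replicate 4 or WT replicate 6 and to 10 without WT replicate 2. With the mean of the meningeal markers as a covariate the count was 6, as it was with the mean of the glucocorticoid-induced genes. Each called gene other than Chd8, Usp11 and Hmgb3 lost the call in some omissions of a mouse. Asl kept it in 1 of the 12, Arl2 and Ide in 2, Crlf2, Lmcd1 and Ptges in 3, Chmp2a in 4 and Fkbp5 in 5. The rest kept it in 6 to 10.

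**Figure D1:**
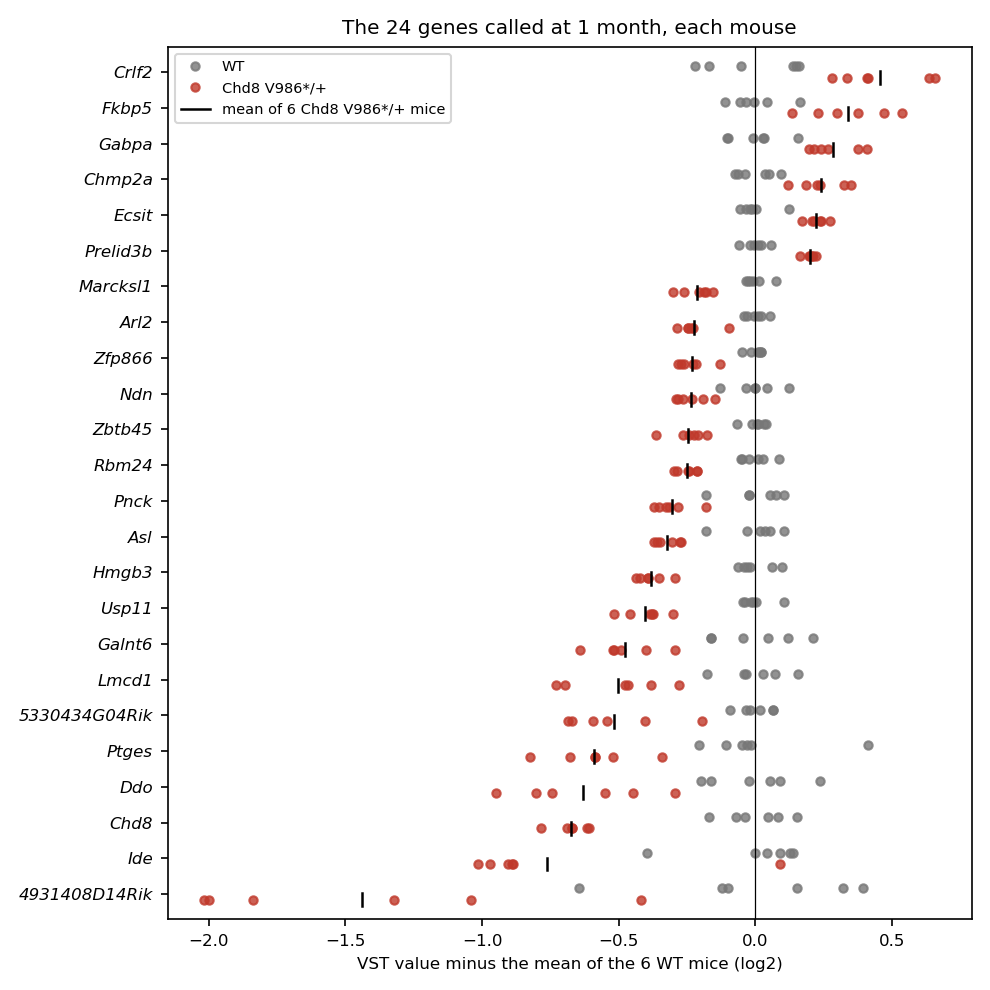
Each row is 1 of the 24 genes called at 1 month, each point 1 mouse, and the x axis the VST value (log2) minus the mean of the 6 WT mice; the black tick is the mean of the 6 Chd8 V986*/+ mice. In 20 of the 24 genes the red and gray points do not overlap, and in Ide 1 red point lies among the gray ones.

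After Chd8, the lowest p values belonged to Usp11 and Hmgb3. Usp11, an X-linked deubiquitinating enzyme (chromosome X, 20281032 to 20297665, plus strand), was 11.64 to 11.78 (median 11.67) in WT and 11.16 to 11.38 (median 11.30) in Chd8 V986*/+ mice, 75.7% of WT (log2 difference −0.40 ± 0.04, adjusted p = 0.000118). Every mutant mouse lay below every WT mouse. None of the other 52 deubiquitinating enzymes was called, and the list of 53 had a median difference of −0.01. Usp53 (0.21 ± 0.07, adjusted p = 0.401) and Usp16 (0.14, adjusted p = 0.459) were the members with the next lowest p and were numerically higher. Hmgb3, a high mobility group protein that bends DNA (chromosome X, 68809093 to 68813851, plus strand), was 8.61 to 8.77 (median 8.65) in WT and 8.24 to 8.38 (median 8.28) in mutant mice (−0.38 ± 0.05, adjusted p = 0.0061). It was the only called gene among 20 high mobility group genes, of which 13 were lower.

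Sequence-specific factors moved in both directions. Gabpa, the DNA-binding subunit of the ETS-family GABP complex that activates many genes for mitochondrial proteins, was 9.48 to 9.74 (median 9.60) in WT and 9.79 to 9.99 (median 9.84) in Chd8 V986*/+ mice (0.28 ± 0.05, adjusted p = 0.0553). Zbtb45, a BTB zinc finger protein, was 9.18 to 9.29 (median 9.26) in WT and 8.89 to 9.07 (median 9.02) in mutants (−0.25 ± 0.04, adjusted p = 0.0417). Zfp866, a zinc finger gene, was 9.53 to 9.60 (median 9.59) against 9.29 to 9.44 (median 9.33) (−0.23 ± 0.04, adjusted p = 0.0413). All 3 were separated by genotype without overlap. Among 340 numbered zinc finger genes Zfp866 was the only one called, 28 were lower and 4 higher at an unadjusted p below 0.05 (8.8% of all genes tested were past this threshold), and the median difference was −0.01. Of 22 ETS-family and GABP genes only Gabpa was called, and Elf1 (−0.24, adjusted p = 0.318) and Spi1 (−0.27, adjusted p = 0.463), a factor of microglia, were numerically lower.

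ETS factors recognize a GGAA core, and the sequence CCGGAAG, on either strand, was looked for in the 250 bases before each annotated start in the RefSeq promoter table (GRCm38.p6). It was present in 4 of the 22 called genes that had a promoter there, or 18.2% (Gabpa, Prelid3b, Usp11 and Zbtb45). The share was 12.9% of the tested genes with a promoter, and this difference was not tested. Counted by window rather than by gene, it was 6.91% of all 32851. Asl and Pnck had no entry. The windows of Gabpa (chr16:84834874-84835123, plus strand) and Usp11 (chrX:20703659-20703908, plus strand) are shown as examples of the 4. The sequence is in capitals and reads CTTCCGG where it lies on the other strand. A match describes the letters only, and binding was not measured.
Gabpa promoter: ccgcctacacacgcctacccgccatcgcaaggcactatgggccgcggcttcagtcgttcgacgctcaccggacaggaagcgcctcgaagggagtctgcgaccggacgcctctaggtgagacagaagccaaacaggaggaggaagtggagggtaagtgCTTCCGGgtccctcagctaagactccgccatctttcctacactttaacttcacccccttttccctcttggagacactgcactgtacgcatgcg
Usp11 promoter: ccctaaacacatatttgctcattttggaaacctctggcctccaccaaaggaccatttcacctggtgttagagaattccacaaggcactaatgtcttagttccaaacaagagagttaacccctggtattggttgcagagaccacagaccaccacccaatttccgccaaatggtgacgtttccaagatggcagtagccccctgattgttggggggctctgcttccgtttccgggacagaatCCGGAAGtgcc

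Ddo, Asl and Galnt6 encode metabolic enzymes and were lower. Ddo, the peroxisomal oxidase that degrades D-aspartate, was 7.11 to 7.55 (median 7.32) in WT and 6.36 to 7.02 (median 6.66) in Chd8 V986*/+ mice (−0.63 ± 0.11, adjusted p = 0.0417). Asl, the urea cycle enzyme that cleaves argininosuccinate, was 7.70 to 7.99 (median 7.91) against 7.51 to 7.61 (median 7.56) (−0.32 ± 0.06, adjusted p = 0.0781). These were the called members of 18 genes of aspartate and D-amino acid metabolism, in which Ass1, the enzyme before Asl in the cycle, differed by 0.11 (adjusted p = 0.685). Galnt6, which starts mucin-type O-glycosylation, was 8.25 to 8.62 (median 8.41) in WT and 7.77 to 8.12 (median 7.91) in mutants (−0.48 ± 0.08, adjusted p = 0.0374).

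Ptges, the inducible prostaglandin E synthase, had values of 6.59 to 7.21 (median 6.76) in WT and 5.97 to 6.46 (median 6.21) in Chd8 V986*/+ mice (−0.59 ± 0.11, adjusted p = 0.0557). Of 20 genes of prostaglandin synthesis and reception 17 were lower, 5 of them at p below 0.05 (background 5.07% lower), with a median of −0.12 against −0.003 over all genes. The count was 3 without Chd8 V986*/+ replicate 5 or WT replicate 1. Ptgr2 (−0.11, adjusted p = 0.452) and Ptgdr, a prostaglandin D2 receptor (−0.48, adjusted p = 0.495), followed Ptges. Meningeal markers were also low in some of these mice, as given further on. With their mean as a covariate Ptges was not called, and their part in the list values was not tested. Lmcd1, which encodes a LIM domain cofactor, was 6.98 to 7.31 (median 7.16) in WT and 6.43 to 6.88 (median 6.69) in mutants (−0.50 ± 0.09, adjusted p = 0.0553). Ptges and Lmcd1 were each called in 3 of the 12 omissions of a mouse, and neither with the mean of the meningeal markers as a covariate. Ptges lost the call without Chd8 V986*/+ replicate 2, 3, 4, 5 or 6 or WT replicate 2, 3, 4 or 6, and Lmcd1 without Chd8 V986*/+ replicate 2, 3, 4 or 5 or WT replicate 1, 3, 4, 5 or 6. The direction was kept in every omission, with adjusted p up to 0.167.

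Among the genes that were higher, 3 act in mitochondria or in membrane remodeling. Prelid3b, a mitochondrial lipid transfer protein, was 9.92 to 10.04 (median 9.98) in WT and 10.14 to 10.20 (median 10.18) in Chd8 V986*/+ mice (0.20 ± 0.03, adjusted p = 0.0413). Ecsit, which takes part in complex I assembly and in Toll-like receptor signaling, was 9.64 to 9.82 (median 9.68) against 9.87 to 9.97 (median 9.92) (0.22 ± 0.04, adjusted p = 0.0417). Chmp2a, a subunit of the ESCRT-III membrane scission complex, was 10.21 to 10.38 (median 10.29) against 10.41 to 10.64 (median 10.52) (0.24 ± 0.05, adjusted p = 0.0557). No mutant mouse overlapped a WT mouse in any of the 3. Of 28 ESCRT genes Chmp2a was the only one called, and 20 were numerically higher. Crlf2, the receptor for thymic stromal lymphopoietin, had the largest increase among the called genes, from 7.95 to 8.34 (median 8.22) in WT to 8.46 to 8.84 (median 8.59) in mutants (0.46 ± 0.09, adjusted p = 0.0557). Among 24 class I cytokine receptor genes no other was called, and 11 were numerically higher and 13 lower.

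Chmp2a and Zbtb45 lie 22183 bases apart on chromosome 7 and moved in opposite directions. Zbtb45 spans 13590285 to 13595171 and Chmp2a 13617355 to 13620126, both on the minus strand. Trim28, a corepressor gene that lies between them on the plus strand, differed by −0.01 ± 0.03 (adjusted p = 0.972), and Ube2m, next to Chmp2a, by −0.03 ± 0.03 (adjusted p = 0.867). Both differences had the same sign at every age: Zbtb45 differed by −0.06, −0.20 and −0.17 and Chmp2a by 0.26, 0.18 and 0.16 at E14.5, 6 months and 12 months. Among the 22 called genes with an mm9 position, no other pair lay within 1000000 bases.

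The remaining called genes were lower and of varied function. Marcksl1, a regulator of actin, was 11.72 to 11.83 (median 11.74) in WT and 11.45 to 11.60 (median 11.55) in Chd8 V986*/+ mice (−0.22 ± 0.03, adjusted p = 0.0374). Ndn, the imprinted gene for necdin, a protein of postmitotic neurons, was 11.48 to 11.74 (median 11.61) against 11.32 to 11.46 (median 11.36) (−0.24 ± 0.04, adjusted p = 0.0417). Arl2, a GTPase in tubulin folding, was 9.42 to 9.52 (median 9.47) against 9.18 to 9.37 (median 9.23) (−0.22 ± 0.04, adjusted p = 0.0557). Rbm24, an RNA-binding regulator of splicing, was 9.24 to 9.38 (median 9.29) in WT and 8.999 to 9.08 (median 9.05) in mutants (−0.25 ± 0.04, adjusted p = 0.0413). Pnck, a calmodulin-dependent kinase on the X chromosome, was 9.94 to 10.23 (median 10.14) against 9.75 to 9.94 (median 9.80) and overlapped slightly (−0.31 ± 0.05, adjusted p = 0.0392). The X-linked noncoding RNA 5330434G04Rik was 7.27 to 7.43 (median 7.36) in WT and 6.68 to 7.17 (median 6.79) in mutants (−0.52 ± 0.09, adjusted p = 0.0413). 4931408D14Rik was weakly expressed and varied most, from 5.09 to 6.13 (median 5.76) in WT and from 3.72 to 5.31 (median 4.15) in mutants (−1.44 ± 0.26, adjusted p = 0.0417), with Chd8 V986*/+ replicate 1 within the WT range.

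The difference of Ide, the insulin-degrading enzyme, rested on 5 of the 6 mutant mice. The WT values were 11.75, 11.80, 11.26, 11.78, 11.70 and 11.65, and the Chd8 V986*/+ values were 11.75, 10.75, 10.64, 10.69, 10.77 and 10.77 for replicates 1 to 6. Replicate 1 was thus at the WT level and the other 5 lay close to 1 below it on the log2 scale (−0.76 ± 0.15, adjusted p = 0.0675). Leaving out replicate 1, picked here for its value, changed the difference to −0.93 ± 0.08 (adjusted p = 1.14e-05). Ide kept the call in 2 of the 12 omissions of a mouse and in 8 of 16 other alternatives. Its adjusted p by limma reached 0.289 among these. The exact permutation test over all 12 mice gave p = 0.0108.

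Of the 11 other tested genes within 600 kb of Ide (chromosome 19, 37343233 to 37412342, minus strand), 2 showed the same division of mice. Fgfbp3, which encodes a carrier of fibroblast growth factors (36992040 to 36994105), was 7.36 to 7.69 in WT, 7.39 in Chd8 V986*/+ replicate 1 and 6.73 to 7.06 in replicates 2 to 6 (−0.51 ± 0.11, adjusted p = 0.11). Btaf1, a TATA-binding protein cofactor (37000569 to 37088547), was 10.81 to 11.19 in WT, 11.04 in replicate 1 and 10.41 to 10.60 in replicates 2 to 6 (−0.41 ± 0.09, adjusted p = 0.153). Cpeb3 and March5, which lie between Btaf1 and Ide, did not divide the mice this way: Cpeb3 was 11.33 to 11.64 in WT and 11.35 in replicate 1 and 11.37 to 11.53 in the others, and March5 was 11.14 to 11.31 and 11.15 to 11.27. Tnks2 and Kif11, on the outer sides of the 3 genes, likewise overlapped.

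Ide levels were counted at the other ages against a level of 11, which was chosen after the values were seen. Below 11 on the VST scale were 2 of 6 WT and 4 of 6 Chd8 V986*/+ embryos at E14.5, 0 of 6 WT and 5 of 6 mutants at 1 month, 0 and 3 at 6 months, and none of either at 12 months. At E14.5 the values ran on without a clear gap at this level, from 10.42 to 11.31 in WT and from 10.56 to 11.20 in mutants. At 6 months the 3 mutants below this level were at 10.63 to 10.69 and the other 3 at 11.28 to 11.58, while WT mice were at 11.08 to 11.21. The genotype differences of Ide were −0.23 at E14.5, −0.09 at 6 months and −0.07 at 12 months (adjusted p of 0.982, 0.933 and 0.796). Copy-number variation that includes Ide and Fgfbp3 is known among C57BL/6J mice. Copy number was not measured here, and its part in this difference was not tested.

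**Figure D2:**
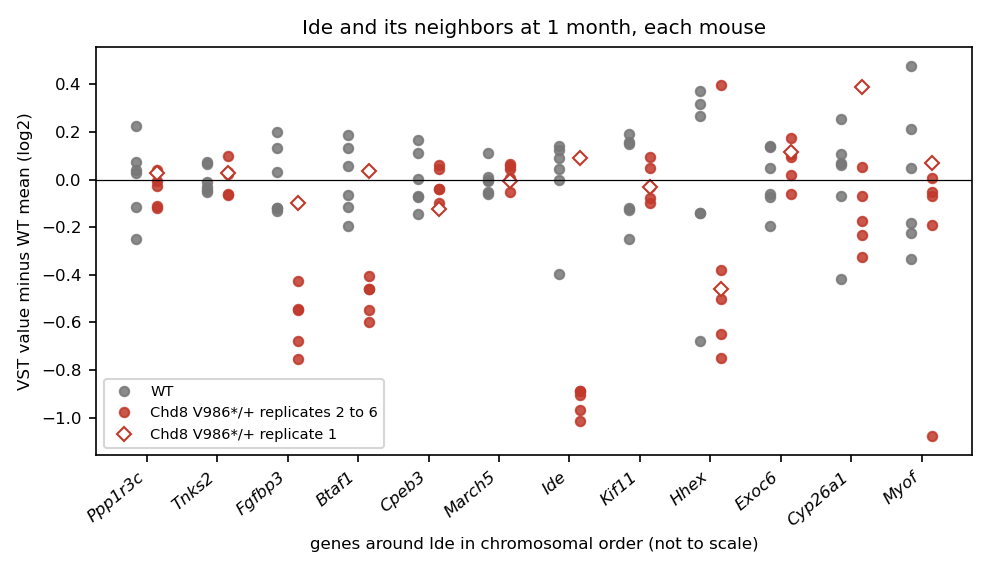
Each column is 1 expressed gene around Ide in chromosomal order, each point 1 mouse at 1 month, and the y axis the VST value (log2) minus the WT mean. In Fgfbp3, Btaf1 and Ide the 5 filled red points lie below all gray points and the open diamond, replicate 1, lies among them, whereas in Cpeb3 and March5 the colors mix.

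The 24 genes were then followed through the other ages, whose mice are separate. At 6 months all 24 differed in the direction seen at 1 month, against 58.1% of all genes measured at both ages. At E14.5 21 of the 24 did so (57.7% of all genes) and at 12 months 19 (46.9% of all genes). The exceptions were Marcksl1, Ptges and Rbm24 at E14.5 and Fkbp5, Gabpa, Marcksl1, Prelid3b and Ptges at 12 months. Differences with an unadjusted p below 0.05 in the same direction numbered 14 at 6 months, 11 at 12 months and 8 at E14.5, where such differences made up 5.62%, 5.58% and 3.11% of all genes. At an adjusted p below 0.1, Chd8, Crlf2, Ddo, Hmgb3 and Usp11 were called at 6 months (16 calls in all, 0.0927%), Chd8 and Usp11 at 12 months (8 calls, 0.0463%) and Chd8 at E14.5, which was the only call at that age (0.00593%).

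The called genes followed several courses over age, none of which passed the test of a difference between ages. Arl2, Chmp2a, Ndn and Crlf2 had differences of like size at each age: Arl2 differed by −0.22, −0.22, −0.21 and −0.23 at E14.5, 1, 6 and 12 months. Hmgb3 was lower at 1 and 6 months (−0.38 and −0.43) and differed less at E14.5 (−0.05 ± 0.05) and 12 months (−0.08 ± 0.08). Galnt6 had the same course, with −0.48 at 1 and 6 months and −0.07 and −0.03 at E14.5 and 12 months. Marcksl1 differed at 1 month and by 0.03, −0.07 and 0.04 at the other ages. Fkbp5 was higher at 1 month, whereas at 12 months it had a difference of −0.37 ± 0.13, and Ptges went from −0.59 to 0.24 ± 0.15.

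The change of the genotype effect with age was tested for every gene in 1 model of all 48 samples. Between 1 month and 6 months no gene passed an adjusted p below 0.1 by limma, and 581 genes (3.36%) had an unadjusted p below 0.05. Between 1 month and E14.5 no gene passed either, with 796 genes (4.6%) at an unadjusted p below 0.05. Between 1 and 12 months 1923 genes (11.1%) had an unadjusted p below 0.05 and Arpc2, a subunit of the actin-nucleating ARP2/3 complex, passed (0.00578% of genes; 0.08 at 1 month against −0.23 at 12 months, adjusted p = 0.00927). For the difference between 1 and 12 months, adjusted p values by limma were 0.146 for Hmgb3, 0.253 for Galnt6, 0.168 for Fkbp5, 0.134 for Ptges and 0.168 for Gabpa.

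**Figure D3:**
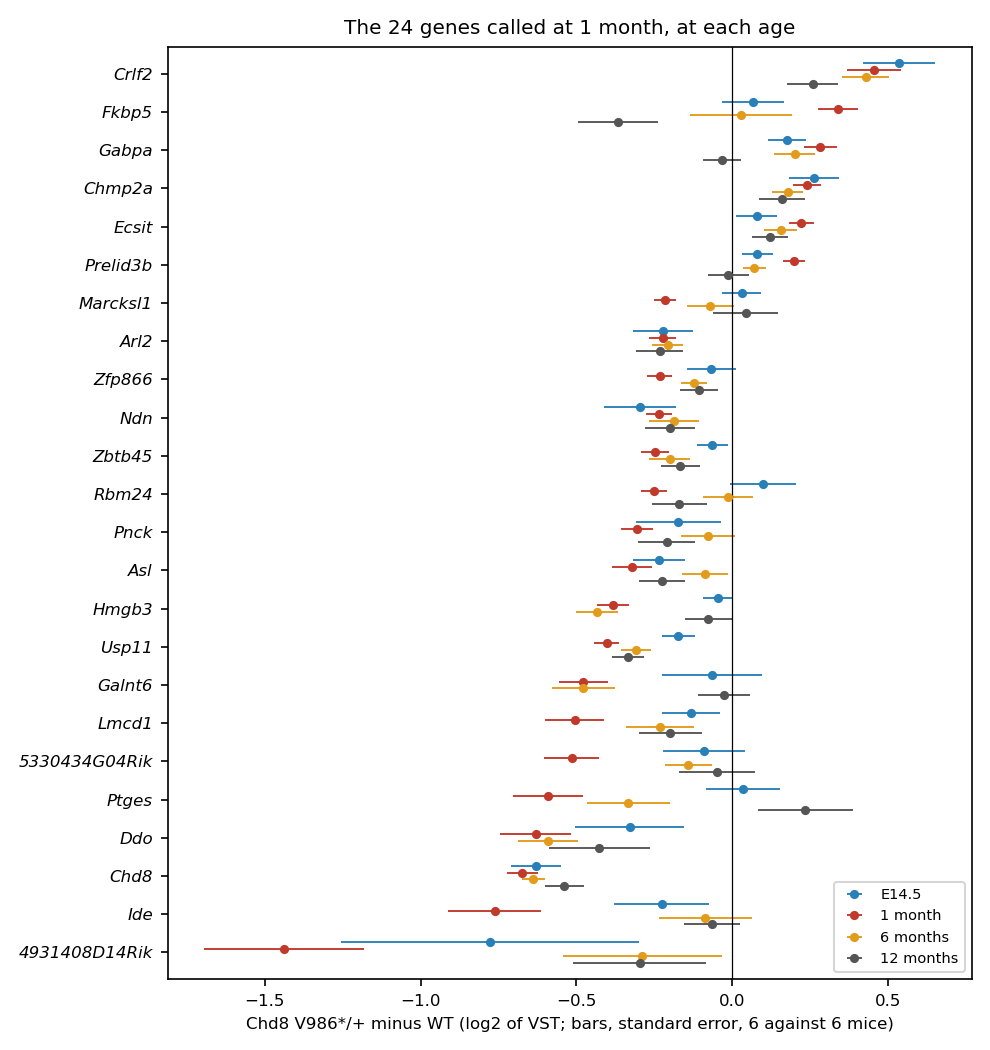
Each row is 1 of the 24 genes called at 1 month, and the points are the difference of Chd8 V986*/+ and WT means (log2 of VST, 6 against 6 mice) at each of 4 ages with the standard error as bars. Arl2, Ndn and Chmp2a keep a similar difference throughout, Hmgb3 and Galnt6 differ at 1 and 6 months, and Fkbp5 lies at 0.34 at 1 month and −0.37 at 12 months.

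Genes just outside the threshold were similar in size to those called. Among higher genes the lowest p values belonged to Acot13, a mitochondrial thioesterase (0.23 ± 0.05), Wars2, the mitochondrial tryptophanyl-tRNA synthetase (0.35 ± 0.08, adjusted p = 0.145), Parva, an adaptor of integrin adhesions (0.22), BC065397 (0.57) and Trappc2 (0.23). Wars2 was 7.59 to 8.07 in WT and 8.10 to 8.30 in mutant mice, without overlap, and differed by 0.31, 0.37 and 0.33 at E14.5, 6 months and 12 months. Among lower genes they belonged to Osr1 (−0.66), Zfp362 (−0.21), Fgfbp3 (−0.51), Patz1 (−0.23) and Gpaa1 (−0.21), with adjusted p of 0.11 to 0.145. Csad, which makes the taurine precursor hypotaurine, was 8.27 to 8.49 in WT and 8.51 to 8.81 in mutants (0.29 ± 0.06, adjusted p = 0.153). BC025920 (0.45), Egfl6 (0.53), Lyrm7 (0.28), Pum3 (0.22) and Tmem209 (0.15) were also above WT, with adjusted p of 0.153 to 0.288, and these 5 had the same sign at the other 3 ages. Csad, Parva, Wars2 and these 5 belong to genes that the study picked for change at several ages in the same samples, so their shared sign over ages follows from the choice.

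The gene lists for pathways and cell types held no called gene beyond those described. Of the 49 lists 11 held a called gene, and several of these lists were drawn up around such a gene. Among 10 CHD-family remodelers 9 were lower, but only Chd8 was called, and Chd6 (−0.13, adjusted p = 0.374) was the next. Of 53 high-confidence autism risk genes Chd8 alone was called and 34 were numerically lower, with a median difference of −0.02. The chromatin regulators Kdm6b (−0.19, adjusted p = 0.337) and Kmt5b (−0.09, adjusted p = 0.525) followed. In the Wnt and beta-catenin pathway 2 of 60 genes were higher and 4 lower at an unadjusted p below 0.05, near the background of 3.73% and 5.07%, and Apc, a brake on beta-catenin, had a difference of 0.20 ± 0.06 (adjusted p = 0.327). Of 28 genes of p53 and its targets 15 were numerically higher and 13 lower, 4 and 2 of them at p below 0.05, with a median of 0.01 and none called. Trp53 itself (−0.22, adjusted p = 0.189), Rrm2b (0.15) and Trp53inp1 (0.25) had the lowest p. None of 34 synaptic vesicle genes, 17 GABA-A receptor subunits, 16 ionotropic glutamate receptor subunits, 23 heat shock chaperones or 22 astrocyte genes reached an unadjusted p below 0.05.

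Genes of cholesterol synthesis were numerically lower as a group. Of 23 genes, 21 were lower, 10 of them at an unadjusted p below 0.05 (background 5.07% lower), and the median difference was −0.10, although none was called. Insig1, a sterol sensor that restrains the pathway, was 10.48 to 10.72 in WT and 10.31 to 10.52 in mutant mice (−0.18 ± 0.05, adjusted p = 0.282). Dhcr7, which catalyzes a late step, differed by −0.16 ± 0.05 (adjusted p = 0.327). The mean over the list was 10.11 to 10.17 in WT and 9.999 to 10.15 in mutants, where replicates 1 and 6 were lowest and replicate 2 was within the WT range. Leaving out any mouse kept 19 to 23 of the genes lower. Oligodendrocytes supply much of the cholesterol of postnatal brain, and a link between the 2 lists was not tested. Of 34 genes of the oligodendrocyte lineage 5 were lower at p below 0.05 (background 5.07%), with a median over the 34 of −0.05. The 5 included Sox10 (−0.23 ± 0.06, adjusted p = 0.282) and Nkx2-2 (−0.32 ± 0.10, adjusted p = 0.356), both transcription factors of the lineage. This count was 8 without Chd8 V986*/+ replicate 2 and 4 without Chd8 V986*/+ replicate 1 or 3 or WT replicate 2. Without Chd8 V986*/+ replicate 1 the median was −0.01, and 2 genes were higher at p below 0.05.

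Glucocorticoid-induced genes were mostly above WT. Fkbp5, a cochaperone of the glucocorticoid receptor that is itself induced by it, was 10.27 to 10.54 (median 10.36) in WT and 10.51 to 10.92 (median 10.72) in Chd8 V986*/+ mice (0.34 ± 0.06, adjusted p = 0.0546). Of the 14 listed genes, 13 were higher, 6 of them at p below 0.05 (background 3.73% higher), with a median of 0.15. The remaining 1 was lower, also at p below 0.05 (background 5.07% lower), and its difference of −0.64 was the largest of the list in size. Sgk1, a kinase of ion transport, was 10.62 to 11.19 against 10.94 to 11.41 (0.31 ± 0.09, adjusted p = 0.305), and Tsc22d3, a mediator of glucocorticoid action, was 11.30 to 11.66 against 11.57 to 11.92 (0.25 ± 0.07, adjusted p = 0.312). The mean over the list was highest in mutant replicate 6 (9.84) and lowest in WT replicate 2 (9.39), and mutant replicates 2 (9.65) and 3 (9.52) lay within the WT range. Without WT replicate 2, 10 of 14 genes were higher. The number higher at p below 0.05 was 3 without Chd8 V986*/+ replicate 5 or WT replicate 5.

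Activity-induced genes were divided. Of 26, 6 were lower (background 5.07%) and 1 higher (background 3.73%) at p below 0.05, and 11 of the 26 were above WT. Leaving out 1 mouse gave 5 to 9 lower and 0 to 3 higher, and the median of −0.04 turned positive without Chd8 V986*/+ replicate 2, Chd8 V986*/+ replicate 3, WT replicate 1 or WT replicate 2. Dusp1, a phosphatase of MAP kinases, was 9.19 to 10.01 in WT and 8.74 to 9.52 in mutant mice (−0.56 ± 0.15, adjusted p = 0.224). Nr4a1 (−0.47 ± 0.12) and Junb (−0.46 ± 0.12) were of like size. In Nr4a1 the WT mice ranged from 11.02 to 11.93 and so reached into the mutant range of 10.91 to 11.39.

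Markers of neighboring tissue differed between the dissected samples. Of 14 markers of meninges and fibroblasts all were lower in Chd8 V986*/+ mice, against 51.4% of all genes. At p below 0.05 there were 6 (background 5.07% lower), the median was −0.57, and none was called. Col1a2, a fibrillar collagen chain, was 8.86 to 9.77 in WT and 7.54 to 9.56 in mutants. The mean over the list was 7.77 to 8.60 in WT and 6.53 to 8.43 in mutants, and replicates 3 (6.53) and 4 (7.28) were the lowest while replicates 1, 2 and 6 lay within the WT range. Without replicate 3 the median was −0.31. The number of markers with p below 0.05 was 3 without replicate 3, 2 without replicate 4, 1 without WT replicate 1 and 11 without Chd8 V986*/+ replicate 1. Choroid plexus markers were all higher (13 of 13, median 0.49, none at p below 0.05), with list means of 5.14 to 7.502 in WT and 4.91 to 7.95 in mutants. Without Chd8 V986*/+ replicate 3 their median was 0.78 with 7 at p below 0.05, and without WT replicate 6 it was 0.66 with 6. It was 0.26 without Chd8 V986*/+ replicate 1, with none at p below 0.05. Of 16 markers of striatal medium spiny neurons 15 were numerically higher, 1 at p below 0.05 (background 3.73% higher), with a median of 0.30. The median was 0.16 without WT replicate 3 and 0.44 without WT replicate 5, where 11 markers had p below 0.05. Their part in the genes called was not tested beyond the covariate counts.

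Of 22 microglial genes 19 were numerically lower, 5 at p below 0.05 (background 5.07% lower), with a median of −0.10. Ctss, a lysosomal protease, had the lowest p (−0.18 ± 0.06, adjusted p = 0.374). Without Chd8 V986*/+ replicate 3 or WT replicate 5 the median was −0.06 and 1 gene had p below 0.05. Of 29 genes of cortical excitatory neurons and layers, 7 had p below 0.05 (background 8.8%), 5 higher and 2 lower, with a median of 0.02 and none called. Cux2, an upper-layer factor, had the lowest p and was 11.59 to 11.72 in WT and 11.32 to 11.56 in mutants, without overlap (−0.17 ± 0.04, adjusted p = 0.16). Cux1 (−0.11) and Neurod6 (0.16) came next. The others at p below 0.05 were Ctgf (0.17), Tle4 (0.13), Fezf2 (0.23) and Bcl11b (0.17), named here after their values were seen. Over the whole list 19 genes were higher and 10 lower, and layers were not compared. None of the 29 was higher at p below 0.05 without Chd8 V986*/+ replicate 4, Chd8 V986*/+ replicate 5 or WT replicate 6, and 1 was without WT replicate 5, while 2 were without Chd8 V986*/+ replicate 3, WT replicate 1 or WT replicate 4 and 3 without Chd8 V986*/+ replicate 6. Of 28 interneuron and neuropeptide genes only Cort, a neuropeptide of a set of interneurons, had p below 0.05 (−0.25, adjusted p = 0.495).

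**Figure D4:**
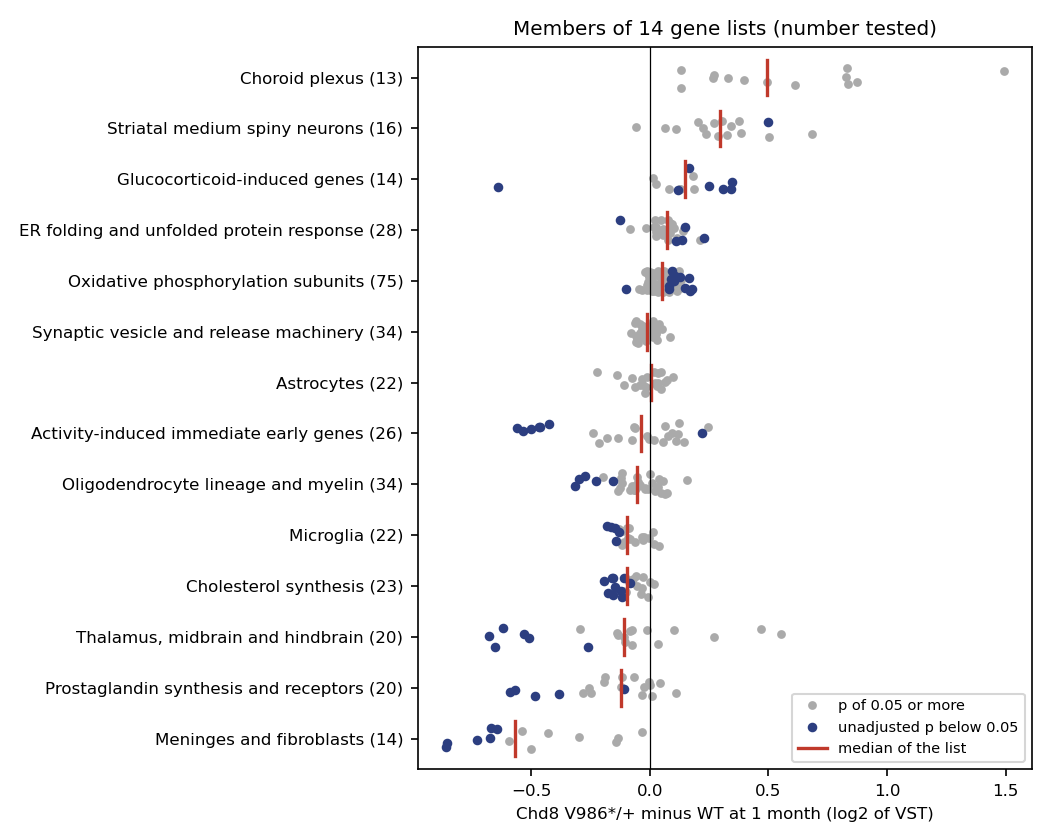
Each row is a gene list with its number of genes tested, each point 1 gene, and the x axis the difference of Chd8 V986*/+ and WT at 1 month (log2 of VST); blue points have an unadjusted p below 0.05 and the red line is the median. Points of cholesterol synthesis lie close together below 0, while meningeal and choroid plexus markers are spread widely on opposite sides.

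Genes of the respiratory chain were slightly above WT. Of 75 oxidative phosphorylation subunits 65 were higher, 11 of them at p below 0.05 (background 3.73% higher), with a median of 0.05. At the same threshold 1 was lower (background 5.07% lower). The number higher at p below 0.05 was 17 without Chd8 V986*/+ replicate 2. Ndufs8 (0.16 ± 0.04, adjusted p = 0.197) and Ndufa1 (0.15), both of complex I, and Cox7a2 of complex IV (0.17) had the lowest p. The mean over the list was 10.75 to 10.88 in WT and 10.80 to 11.02 in mutants, where replicate 3 was highest and the other 5 reached only 10.88. Without replicate 3 the median was 0.02 and 54 of 75 were higher, with 6 at p below 0.05, and without WT replicate 2 it was 0.03 with 55. The median over 78 mitochondrial ribosomal proteins was 0.04: 61 were numerically higher, 8 at p below 0.05, and 1 was lower at p below 0.05. Without Chd8 V986*/+ replicate 3 the median was 0.03 with 50 higher, 2 of them at p below 0.05, and this count was 4 without WT replicate 5 and 5 without WT replicate 2. These genes are short, and transcript length moved with the difference: over the genes above 7 on the VST scale, the tenth with the shortest transcripts (up to 1451 bases) had a median of 0.02 and the tenth with the longest (6720 bases or more) −0.01. The part of length in these medians was not tested. Of 22 mitochondrial aminoacyl-tRNA synthetases and related enzymes 17 were higher. Wars2, Fars2 (0.19) and Ears2 (0.15) were higher at p below 0.05, and 1 member was lower at this threshold. Of 28 genes of ER folding and the unfolded protein response 25 were numerically higher, 4 at p below 0.05 (background 3.73% higher), with a median of 0.07. In this list 1 gene was lower at p below 0.05. Chac1 had the lowest p (0.23 ± 0.08, adjusted p = 0.405). The median was 0.04 without WT replicate 6 or Chd8 V986*/+ replicate 5 and 0.05 without Chd8 V986*/+ replicate 4, each with 1 gene higher at p below 0.05, and this count was 2 without Chd8 V986*/+ replicate 6 or WT replicate 1, 4 or 5.

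**Figure D5:**
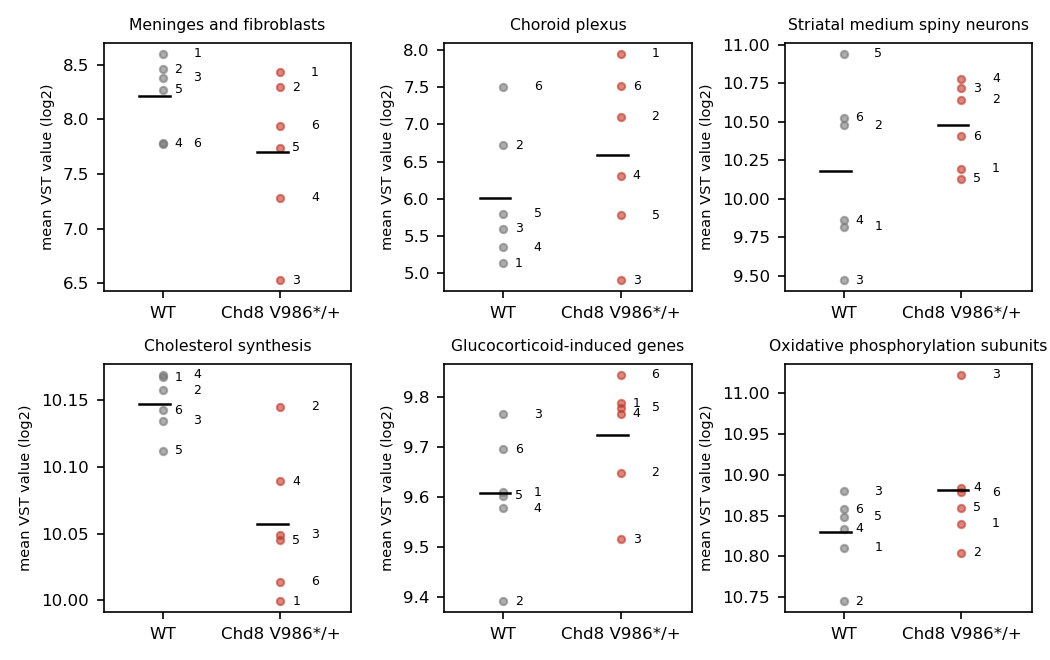
Each panel shows the mean VST value (log2) over 1 gene list in each mouse at 1 month, numbered by replicate, with the mean of 6 mice as a bar; the y axes do not start at 0. In cholesterol synthesis 5 of the 6 Chd8 V986*/+ mice lie below all WT mice, and replicate 3 is lowest for meninges and choroid plexus and highest for oxidative phosphorylation.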

How the data were processed

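RNA-seq of cortex from 6 WT and 6 Chd8 V986*/+ mice at 1 month was analysed, with the other 36 samples for the comparison of ages. Per the paper and the labels, the authors aligned reads to mm9 with STAR 2.5.2b, quantified transcripts with Salmon 0.11.3 and used DESeq2 1.22.2. The deposited file holds VST values on a log2 scale for 24444 genes. Averaged over all 48 samples, a difference between replicates 1 to 3 and 4 to 6 had already been removed, to within 3.38e-14. Among the 12 samples at 1 month these sets still differed, by a median absolute difference of 0.0522 over genes. The labels do not name them as batches. No counts were used, so depth per gene is unknown and precision is given by the spread of mice.

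Genes averaging at least 0.5 above the floor (2.143271) were tested with limma 3.58.1 (R 4.3.3), an intensity trend and Benjamini-Hochberg adjustment at 0.1, on 12 samples; differences between ages used all 48. In a test on simulated data for the 1-month comparison, 200 of 17221 genes were changed. Changes of 0.25, 0.5 and 1 were recovered in 47.8%, 74.6% and 93.9% of cases, with 13 false calls. The adjusted threshold is stricter where fewer genes change. These shares may therefore be too high for the real data, in which 24 genes were called.

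The members and lists were chosen with earlier results of these data known. Named genes are Chd8 and its neighbors, all called genes, the 5 uncalled genes of lowest p in each direction, up to 3 per list, tissue markers and genes the paper names at 3 or more ages; Btaf1, the other genes near Ide, Trim28 and Ube2m were added after their values were seen. Some genes that the rule names are not reported here. Lists of 49 kinds were described by counts and medians. Alternatives were a replicate block, a batch covariate, all samples in 1 fit, other filters and variance settings, quantile normalization, centring, read depth, a threshold of 0.05 and leaving out each mouse; marker means as covariates were chosen after seeing the data. Positions are mm9; promoter windows are GRCm38.p6. Python 3.11.15, pandas 2.3.3, numpy 2.4.6, scipy 1.17.1 and matplotlib 3.10.9 were used.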

Additional observations from a re-analysis of the deposited data

Results flagged for a closer look

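Mice that lay far from the other 5 of their group were looked for in 74 groups of gene values and 98 groups of list means; chance sets apart about 1 group in 20. Among genes, 9 values stood out. Ide was 11.75 in Chd8 V986*/+ replicate 1 against 10.64 to 10.77 in the others and 11.26 in WT replicate 3 against 11.65 to 11.80, and Btaf1 was 11.04 in the same Chd8 V986*/+ replicate 1 against 10.41 to 10.60. Arl2 was 9.37 in Chd8 V986*/+ replicate 6, and Acot13 was 10.24 in Chd8 V986*/+ replicate 3. In WT mice, Ecsit was 9.82 in replicate 6, Ptges 7.21 in replicate 5, Usp11 11.78 in replicate 2 and Osr1 5.76 in replicate 4.

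Among list means, 7 values stood out. Chd8 V986*/+ replicate 3 was low for interneuron and neuropeptide genes (9.72 against 9.92 to 9.99) and high for cytosolic ribosomal proteins (10.86), mitochondrial ribosomal proteins (9.09) and oxidative phosphorylation subunits (11.02 against 10.80 to 10.88). WT replicate 5 was low for circadian clock genes (10.51), WT replicate 1 high for aspartate and D-amino acid metabolism (9.86) and WT replicate 2 high for potassium channel genes (9.11).

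The genotype effect on Arpc2 differed between ages by the test of the difference itself: it was 0.31 higher at 1 month than at 12 months on the log2 scale (adjusted p = 0.00927, limma). This call was lost when only the 24 samples of these ages were fitted and after quantile normalization.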

How the results depend on the processing

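The 24 calls at 1 month became 13 with a replicate block (11 shared), 37 in 1 fit of all 48 samples (17 shared), 45 in that fit with the block, 15 at an adjusted p below 0.05, and 6, 43, 13 and 6 with the mean of meningeal, choroid plexus, striatal or glucocorticoid-induced genes as a covariate. Leaving out 1 mouse gave 3 to 32 calls, with Chd8 between −0.71 and −0.64. The deviations of same-numbered mice correlated at −0.073 to 0.0991, and in 1 of 6 the own number correlated best. Such correlations cannot show whether same-numbered mice were littermates or were handled together, and the labels do not say. Chd8, Usp11 and Hmgb3 were called under all 16 alternatives and all 12 omissions. Over the 23 called genes other than Chd8, 411 of 644 alternative values kept the call, 233 kept the direction but lost it, and 0 reversed. These 23 include Usp11 and Hmgb3, which kept the call throughout, so the share kept was lower among the rest. For the difference between 1 and 12 months, 1 gene became 141 with the block within ages, 4 with genes 1.5 above the floor, 3 without a trend, 0 with quantile normalization and 0 with 24 samples; between 1 month and E14.5, 0 became 2 with the block. The cause of these changes was not tested. VST values carry no counts, so the precision of weakly expressed genes such as 4931408D14Rik rests on the 6 mice alone.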

Other observations

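Of the 22 called genes with a unique place in the mm9 annotation, 4 lie on the X chromosome (Usp11, Hmgb3, Pnck and 5330434G04Rik), and all 4 were lower. The X chromosome holds 564 of the 15160 placed genes tested (3.72%). The 12 mice were male.

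Markers of midbrain, hindbrain and thalamus, which should be rare in cortex, were lower in 15 of 20 genes, against 51.4% of all genes. Zic2 (−0.53, adjusted p = 0.189), Zic1 (−0.62) and Pou4f1 (−0.65) led, and none was called. The list was weakly expressed, with means of 5.56 to 5.95 in WT and 5.26 to 5.91 in mutants. Chd8 V986*/+ replicate 3 was lowest (5.26), as it was for the meningeal markers (6.53). A link between these lists was not tested. Without this mouse 13 of the 20 genes were lower. Another 6 members fell below the filter, and the differences ran from −0.68 to 0.55. In hippocampal markers 11 of 12 were higher, against 8369 of all 17221 genes, with Bok (0.24, adjusted p = 0.282) and Fibcd1 (0.30) leading. Of these markers 2 were higher at p below 0.05 (background 3.73% higher). Without WT replicate 1 or WT replicate 4, 8 of the 12 were higher, and without Chd8 V986*/+ replicate 1 or 5, 9 were.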
